A study of Mus musculus with 12 samples.

Results

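A set of 525 chromatin regions was open in cortical neurons given alpha-synuclein fibrils, was not called open in vehicle-treated neurons, and was still called open in most cultures that also received an inhibitor of the kinase LRRK2. The regions came from ATAC-seq, in which the transposase Tn5 cuts accessible DNA, so that a pile of sequenced fragments (a peak) marks an open site. Peaks of all 12 libraries that shared at least 1 bp were merged into 263785 regions. A region was kept when it had a peak in 3 of 3 PFF libraries, 0 of 3 PBS libraries and at least 2 of 3 PFF+MLi-2 libraries. The first 2 conditions were met by 2385 regions (PFF-gained regions), and the third left the 525 kept regions, with 1860 other PFF-gained regions beside them.

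The cells were primary cortical neurons of the wild-type mouse strain C57BL/6, taken from embryos at E18, and all libraries were labelled as batch 1. Each of the 4 groups had 3 libraries. PBS cultures received vehicle, PFF cultures received pre-formed fibrils of human wild-type alpha-synuclein, and the other two groups received the same fibrils with MLi-2, an LRRK2 inhibitor, or with antisense oligonucleotides (ASO) against Rab5a and Rab5b. Treatment lasted 7 days, with MLi-2 present over the last 5 days and the Rab5 ASO over the last 3 days. In the study's methods a biological replicate is a pregnancy, and cultures were assigned to groups at random. No group received MLi-2 or Rab5 ASO in the absence of fibrils, so neither agent can be separated here from its combination with PFF.

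LRRK2 is a kinase that phosphorylates Rab GTPases on endosomes and lysosomes, and mutations that raise its activity cause inherited Parkinson's disease. Rab5 proteins are GTPases of the early endosome and take part in the uptake and sorting of internalised cargo. Fibrils of alpha-synuclein taken up by neurons seed the aggregation of the neuron's own alpha-synuclein. The rule asks at which sites a peak called with fibrils was also called when LRRK2 was inhibited. How often such a call recurred in libraries left out of these conditions is given at the end. AP-1, a dimer of Fos and Jun proteins, binds TGANTCA at many enhancers of stimulated neurons and of glia, and CACGTG is bound by TFEB, TFE3 and other basic helix-loop-helix factors.

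The lists held 137417 to 184717 peaks per library, and a relative depth read from the peak background ran from 0.775 to 1.31. All 8 neuronal marker genes had a peak within 1 kb of a start site in all 12 libraries. So did all 3 astrocyte genes (Gfap, Aqp4, Aldh1l1) and all 3 genes of the oligodendrocyte lineage (Olig2, Pdgfra, Mbp). Of the microglial genes, Aif1 and Cx3cr1 had a peak in 0 libraries, and Csf1r had one in 1 PBS library, in 3 PFF libraries, in 1 that received MLi-2 and in 2 that received the Rab5 ASO. Accessibility at a promoter is not expression, and the part of glial nuclei in the results below was not tested. No kept region lay within 1 kb of a start site of these genes.

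The first set of sequences shows kept regions that held an AP-1 match near the summit and had no peak in any PFF+Rab5 ASO library, the pattern described further on. Each is the plus strand of GRCm38, 100 bases to either side of the summit, 201 bases in all, taken from the RefSeq genome. Capitals mark TGANTCA on either strand. The windows are chr5:119233063-119233263 (intergenic, nearest start site that of Gm7538), chr5:36188389-36188589 (an intron of Sorcs2), chr9:109039067-109039267 (promoter of Shisa5), chr5:48588123-48588323 (an intron of Kcnip4) and chr16:31652529-31652729 (intergenic, near Dlg1).
Gm7538 neighbour: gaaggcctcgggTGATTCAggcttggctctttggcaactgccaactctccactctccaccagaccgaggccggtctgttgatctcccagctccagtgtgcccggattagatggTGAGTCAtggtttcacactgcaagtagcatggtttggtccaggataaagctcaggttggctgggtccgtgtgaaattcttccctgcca
Sorcs2 intron: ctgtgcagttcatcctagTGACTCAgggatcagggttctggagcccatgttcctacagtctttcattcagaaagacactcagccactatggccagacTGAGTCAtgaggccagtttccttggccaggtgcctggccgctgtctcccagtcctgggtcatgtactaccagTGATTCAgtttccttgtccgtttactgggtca
Shisa5 promoter: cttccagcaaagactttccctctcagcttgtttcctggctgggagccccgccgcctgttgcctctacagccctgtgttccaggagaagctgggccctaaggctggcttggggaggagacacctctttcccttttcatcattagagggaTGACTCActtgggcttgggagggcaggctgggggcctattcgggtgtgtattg
Kcnip4 intron: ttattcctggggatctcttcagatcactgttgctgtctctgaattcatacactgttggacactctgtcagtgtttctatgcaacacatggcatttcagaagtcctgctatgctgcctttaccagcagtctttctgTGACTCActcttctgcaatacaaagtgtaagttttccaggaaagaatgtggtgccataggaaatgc
Dlg1 flank: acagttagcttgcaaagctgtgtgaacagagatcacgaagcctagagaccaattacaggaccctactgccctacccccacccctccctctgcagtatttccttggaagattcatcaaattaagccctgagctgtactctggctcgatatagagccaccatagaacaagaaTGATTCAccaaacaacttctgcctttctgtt

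The Sorcs2 window held 3 matches, one of them centred on the summit itself, and the intergenic window of chromosome 5 held 2, one of them centred 16 bp from the summit. The remaining windows held 1 each, centred 51 bp (Shisa5), 38 bp (Kcnip4) and 73 bp (Dlg1) from the summit. The second set shows the 5 highest kept regions with a peak in all 9 libraries of fibril-treated neurons. The first set was picked for its matches and the second by height among regions with all 9 peaks, so the contrast between them comes from the choice. Of the 5 highest kept regions with 0 Rab5 ASO peaks, 3 held no match (in or near Tspyl5, Cbx7 and Gas7). The windows of the second set are chr11:117426034-117426234 (promoter of the noncoding gene Gm11732), chr11:86457637-86457837 (intergenic, near Rnft1), chr3:70163252-70163452 (intergenic, nearest start site that of Gm37585), chr5:126273299-126273499 (intergenic, nearest start site that of Gm23151) and chr15:77397393-77397593 (promoter of Apol7a). None of them held TGANTCA, and capitals mark the 1 CACGTG found, in the Apol7a window.
Gm11732 promoter: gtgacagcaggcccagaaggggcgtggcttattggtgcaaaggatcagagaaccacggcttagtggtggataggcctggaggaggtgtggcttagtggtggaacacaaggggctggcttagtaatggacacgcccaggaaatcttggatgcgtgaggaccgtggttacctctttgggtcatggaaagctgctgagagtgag
Rnft1 flank: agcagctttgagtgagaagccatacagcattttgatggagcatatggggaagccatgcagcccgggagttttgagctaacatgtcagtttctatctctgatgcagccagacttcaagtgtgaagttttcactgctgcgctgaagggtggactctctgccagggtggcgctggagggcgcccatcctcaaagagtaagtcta
Gm37585 neighbour: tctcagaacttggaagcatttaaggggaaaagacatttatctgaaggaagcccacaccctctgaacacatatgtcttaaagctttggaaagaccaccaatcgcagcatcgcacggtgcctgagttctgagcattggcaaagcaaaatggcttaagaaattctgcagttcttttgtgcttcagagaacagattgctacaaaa
Gm23151 neighbour: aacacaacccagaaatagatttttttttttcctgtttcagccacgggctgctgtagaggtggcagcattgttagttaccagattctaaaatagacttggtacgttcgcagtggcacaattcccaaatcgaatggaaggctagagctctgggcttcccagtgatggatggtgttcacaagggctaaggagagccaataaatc
Apol7a promoter: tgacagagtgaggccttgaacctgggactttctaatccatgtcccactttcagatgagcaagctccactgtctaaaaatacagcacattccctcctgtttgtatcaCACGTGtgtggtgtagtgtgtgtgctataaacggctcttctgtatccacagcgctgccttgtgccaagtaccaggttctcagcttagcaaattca

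Among the 2385 PFF-gained regions, 1003 had a peak in 0 PFF+MLi-2 libraries, 857 in 1, 411 in 2 and 114 in 3. The kept regions therefore consist of 411 regions with 2 libraries and 114 with 3. Regions gained with PFF made up 1.10% of the 216981 regions with a peak in any PFF or PBS library. Gain in PFF+MLi-2 over PBS by the same 3-against-0 rule was met by 114 kept regions (21.7%) and by 0.225% of the 200891 regions with a peak in either group. All these values were used to choose the regions and are given as a description. The peak was present in 71.0% (373), 72.0% (378) and 78.7% (413) of kept regions in PFF+MLi-2 libraries 1, 2 and 3. Each MLi-2 library thus lacked between 112 and 152 of the kept regions.

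Kept regions were low peaks, as were the other PFF-gained regions. The fragment pileup at the summit, recovered from the deposited fold and p-value, had a median of 14, 14 and 13 fragments in the 3 PFF libraries. It was 13 in each of them for the other PFF-gained regions, and 26, 26 and 24 at the 72465 regions called in every one of the 12 libraries (constant regions). The lowest kept peak in each PFF library had 8, 9 and 8 fragments and the highest 38, 31 and 34. Ranked within its own list by fold enrichment, a kept region stood at a median percentile of 33.2 (mean over the PFF libraries), with quartiles of 22.9 and 42.9, and another PFF-gained region at 31.4. In total 303 kept regions were below the list median in all 3 PFF libraries and 14 were above it in all 3. A site with so few fragments can miss the calling threshold in one library and pass it in another by counting error, and absence of a peak in PBS does not mean absence of fragments there.

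In the PFF+MLi-2 libraries the called kept peaks had medians of 14, 12 and 13 fragments, and their percentile was 24.9 at the median region. The mean percentile was lower in PFF+MLi-2 than in PFF at 369 of 525 kept regions (70.3%). The rule required 3 PFF peaks of each region but only 2 MLi-2 peaks, so the heights were selected on in unlike ways and the difference is a description. In the PFF+Rab5 ASO libraries, on which the rule set no condition, called kept peaks had medians of 15, 14 and 15 fragments. Pileups are not scaled for depth, which was 0.775 to 0.919 in PFF and 1.05 to 1.31 in PFF+Rab5 ASO relative to the mean. As fold, the medians were 4.44, 4.63 and 4.79 in PFF and 4.26, 4.26 and 4.29 in PFF+Rab5 ASO, so the order of the groups turned with the scale.

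The highest kept regions with a peak in 3 of 3 PFF+MLi-2 libraries were mostly outside promoters. Pileups are given in the order of the libraries, and where fewer than 3 values stand for a group its other libraries had no peak there. At the start site of Gm11732, a noncoding transcript on chromosome 11 (chr11:117425952-117426213), summit pileups were 22, 21 and 22 fragments in PFF, 12, 13 and 14 with MLi-2, and 20, 19 and 14 in PFF+Rab5 ASO. All MLi-2 and all Rab5 ASO libraries were lower there than all PFF libraries. Regions named as highest, here and below, were ranked on PFF height. That ranking favours lower values in the other groups, so such differences are a description. An intergenic region of chromosome 3 (chr3:159049718-159050086), 26278 bp from the start of the noncoding Gm20752, had 17, 20 and 17 fragments in PFF, 12, 13 and 13 with MLi-2, and a peak of 11 in 1 of 3 Rab5 ASO libraries.

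Gas7 encodes an F-BAR protein linked to neurite outgrowth and held 2 of these 8 regions. The intronic one (chr11:67489820-67490220) had 18, 19 and 17 fragments in PFF and 13, 10 and 14 with MLi-2, with a peak of 11 in 1 Rab5 ASO library. The other (chr11:67438849-67439078), intergenic and 16359 bp from the nearest Gas7 start, had 12, 16 and 18 in PFF, 14, 12 and 11 with MLi-2 and no peak in Rab5 ASO. PFF and MLi-2 values overlapped at the intergenic site and not at the intronic one, and both sites stood 50.7 kb apart. An intronic region whose nearest protein-coding start, 46090 bp away, is that of Tspyl5 (chr15:33641593-33641794) had 18, 15 and 19 fragments in PFF, 13, 12 and 14 with MLi-2 and no Rab5 ASO peak.

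Among these 8, 3 further intergenic regions had a peak in all 9 fibril libraries. Near Rnft1, which encodes a membrane E3 ubiquitin ligase, pileups were 16, 14 and 19 in PFF, 14, 14 and 16 with MLi-2 and 16, 11 and 16 in PFF+Rab5 ASO (chr11:86457625-86457849). At chr3:70163173-70163380 they were 17, 18 and 12, then 11, 11 and 10, then 11, 13 and 16. At chr5:126273336-126273520 they were 17, 19 and 15, then 15, 14 and 15, then 17, 12 and 23. The pileups of the 3 groups overlapped at Rnft1 and on chromosome 5, while on chromosome 3 the MLi-2 values were all below the PFF values. As fold, the MLi-2 values on chromosome 5 (5.20 to 5.27) were also below those of PFF (5.47 to 6.99), and at Rnft1 the Rab5 ASO values (4.26 to 5.61) were below those of PFF (5.78 to 7.99). In all, 32 kept regions (6.10%) had a peak in all 9 libraries.

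**Figure D1:**
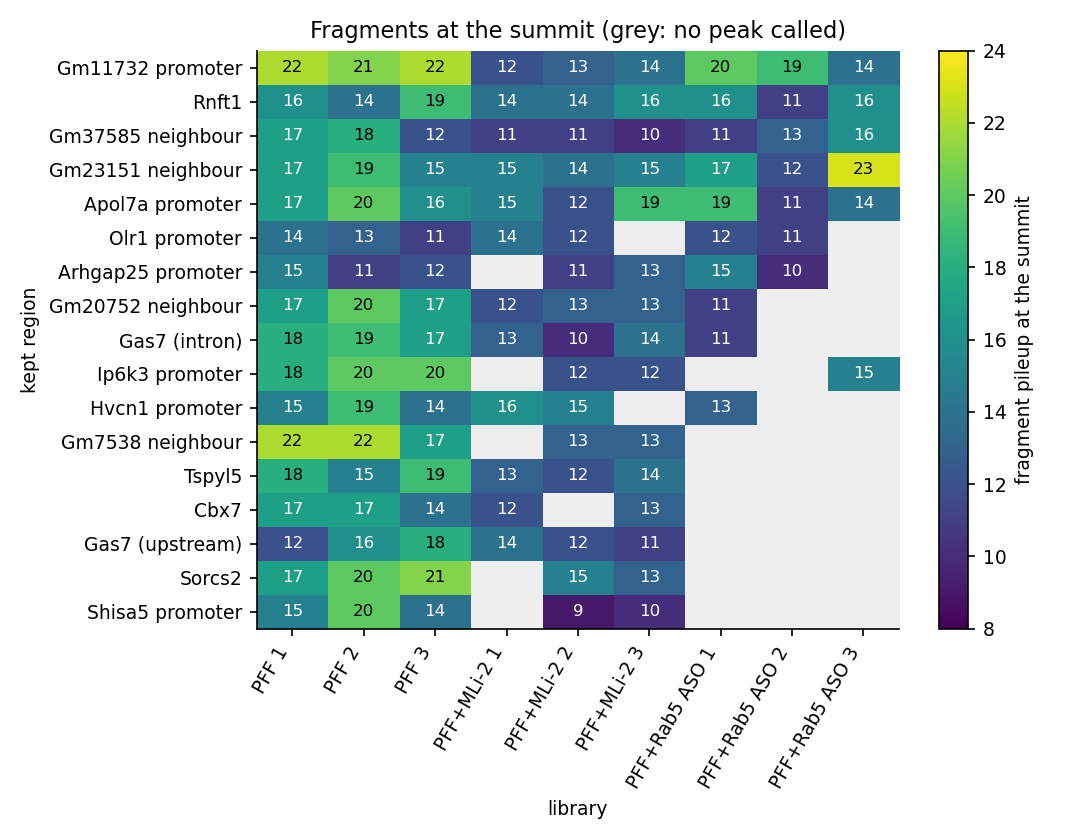
Fragment pileup at the summit (colour and printed number, in fragments) of the highest kept regions, by library, with gene names on the vertical axis, sorted by the number of PFF+Rab5 ASO libraries with a peak. Grey cells have no called peak. The top 5 rows have a peak in all 9 libraries, with 10 to 23 fragments, and the bottom 6 rows have none in PFF+Rab5 ASO.

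Promoters held 74 kept regions (14.1%, Wilson 95% interval 11.4 to 17.3%), counted within 1 kb of any annotated start site. That share was 12.9% of the other PFF-gained regions, 17.1% of all merged regions and 29.0% of constant regions. A protein-coding start site lay within 1 kb of 51 kept regions. The highest of these was Shisa5, an endoplasmic reticulum membrane protein linked to p53-dependent apoptosis (chr9:109039064-109039271), with 15, 20 and 14 fragments in PFF, peaks of 9 and 10 with MLi-2 and none in Rab5 ASO. Ip6k3, an inositol hexakisphosphate kinase (chr17:27167675-27167893), had 18, 20 and 20 in PFF, 12 and 12 with MLi-2 and 15 in 1 Rab5 ASO library. Both promoters had lower MLi-2 than PFF peaks, an order that ranking on PFF height favours.

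Apol7a, of the apolipoprotein L family (chr15:77397432-77397623), had 17, 20 and 16 fragments in PFF, 15, 12 and 19 with MLi-2, and 19, 11 and 14 in Rab5 ASO, with overlap between all 3 groups. Hvcn1, a voltage-gated proton channel of immune cells (chr5:122210002-122210205), had 15, 19 and 14 in PFF, 16 and 15 with MLi-2 and 13 in 1 Rab5 ASO library. Olr1, the receptor for oxidised low-density lipoprotein (chr6:129507086-129507290), had 14, 13 and 11 in PFF, 14 and 12 with MLi-2, and 12 and 11 in Rab5 ASO. Arhgap25, a GTPase-activating protein of blood cells (chr6:87533019-87533249), had 15, 11 and 12, then 11 and 13, then 15 and 10. PFF and MLi-2 peaks overlapped at all 4 of these promoters, and the Rab5 ASO peak of Hvcn1 was the lowest there.

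The rule set no condition on the 3 PFF+Rab5 ASO libraries, which give a further reading of the kept regions. Their peaks did take part in the merging that set the bounds of the regions. A peak was present in 56.4%, 48.8% and 42.9% of kept regions in Rab5 ASO libraries 1, 2 and 3, against 38.9%, 33.1% and 27.5% of the other PFF-gained regions. The share was higher in kept regions in 3 of 3 libraries, by 17.5, 15.6 and 15.4 percentage points (mean 16.2 ± 1.13, SD, n = 3). The exact sign-flip permutation test over the 3 libraries gave a two-sided p of 0.25, the smallest that 3 libraries allow. The difference was about as large at every peak height, with means of 16.4, 16.0 and 15.6 points in the low, middle and high of 3 equal bins of PFF-gained regions by PFF fold percentile.

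Both sets stood below the whole. The same libraries had a peak in 58.7%, 53.5% and 49.99% of all merged regions. A peak in at least 2 of 3 Rab5 ASO libraries was found at 256 kept regions (48.8%), 569 of the other PFF-gained regions (30.6%) and 51.0% of all merged regions. By number of Rab5 ASO libraries, 150 kept regions had a peak in 0, 119 in 1, 110 in 2 and 146 in 3. The 146 also met the 3-against-0 rule for gain in Rab5 ASO over PBS, which 2.59% of the 227503 regions with a peak in either group met. On that basis they were 38.9% of the 375 kept regions with any Rab5 ASO peak, beside 29.2% (290 of 992) of the other PFF-gained regions. The 150 (28.6%) met the rule for loss in Rab5 ASO against PFF, as did 46.7% of the other PFF-gained regions and 1.94% of the 230866 regions with a peak in either group. The choice had already fixed the PBS and PFF sides of both rules, so these counts are to be read only beside those of the other PFF-gained regions.

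**Figure D2:**
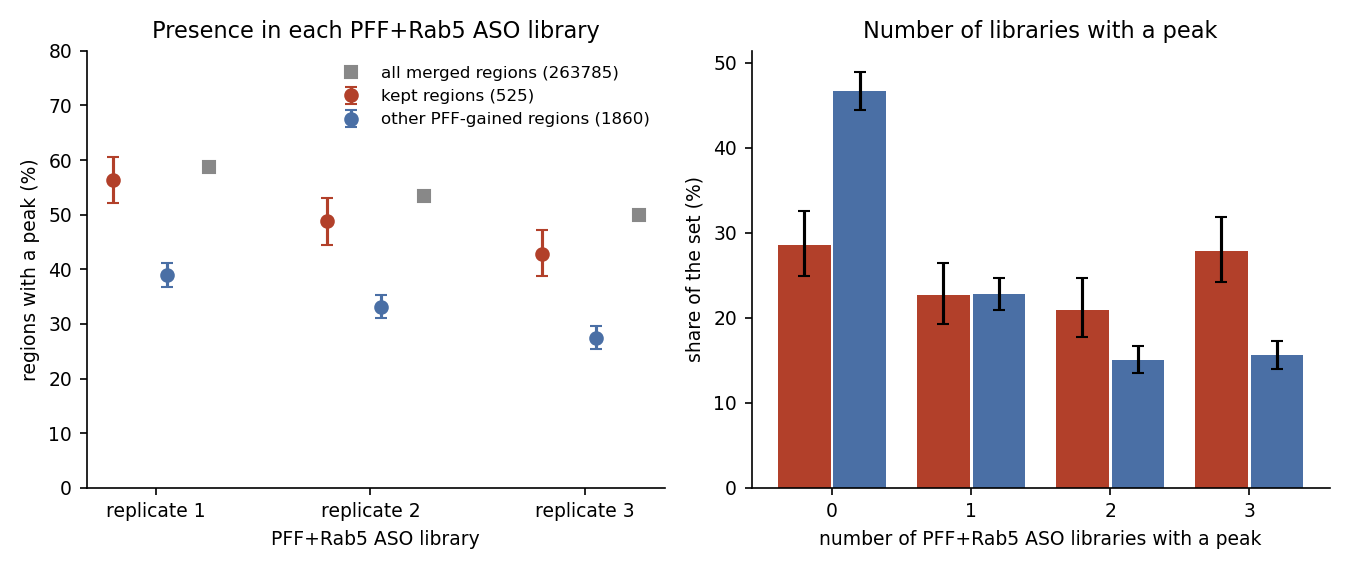
Left, share of regions with a peak (%) in each PFF+Rab5 ASO library for kept regions, other PFF-gained regions and all merged regions. Right, share of kept (red) and other PFF-gained (blue) regions (%) by the number of PFF+Rab5 ASO libraries with a peak; bars and whiskers give shares and Wilson 95% intervals, which cover counting error only. Kept regions are 17.5, 15.6 and 15.4 points above the other PFF-gained regions.

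The number of Rab5 ASO libraries went with the number of PFF+MLi-2 libraries across the threshold of the rule. Over PFF-gained regions with a peak in 0, 1, 2 and 3 PFF+MLi-2 libraries, the mean share with a peak per Rab5 ASO library was 27.5%, 39.8%, 47.9% and 54.4%. Just outside the threshold (857 regions, 1 MLi-2 library) the median PFF percentile was 31.8, the median width 166 bp and the promoter share 13.9%. Just inside it (411 regions, 2 MLi-2 libraries) these were 32.5, 171 bp and 13.9%. Height, width and promoter share were close on both sides of the threshold.

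A like gradient ran with PBS. Among regions with a peak in 3 PFF and at least 2 PFF+MLi-2 libraries, the 525 with 0 PBS peaks had a peak in all 3 Rab5 ASO libraries in 27.8%. The share was 39.9% of 2710 regions with 1 PBS library, 55.1% of 8224 with 2 and 91.5% of 83042 with 3. The median PFF percentile of these sets was 33.2, 37.9, 43.0 and 72.5, so height was greater in the same order and its part was not tested.

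**Figure D3:**
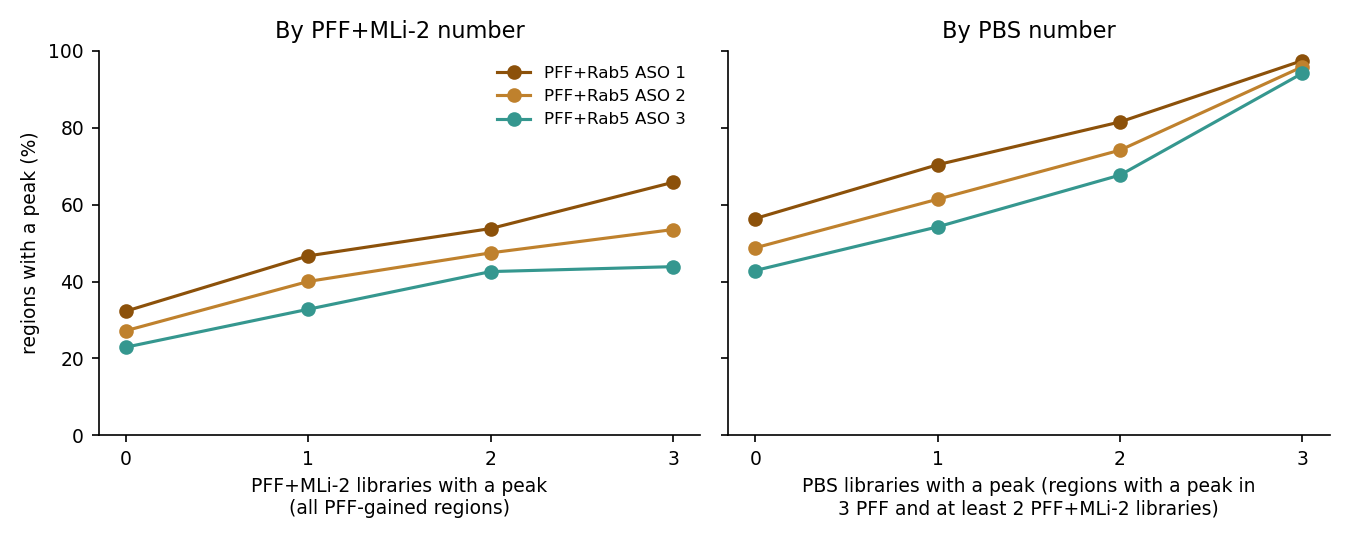
Share of regions with a peak (%) in each of the 3 PFF+Rab5 ASO libraries (lines). Left, PFF-gained regions by the number of PFF+MLi-2 libraries with a peak, where the kept regions are those at 2 and 3. Right, regions with a peak in 3 PFF and at least 2 PFF+MLi-2 libraries by the number of PBS libraries with a peak, where the kept regions are those at 0. All 3 lines are higher at each step from left to right in both panels.

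An AP-1 match (TGANTCA, either strand, within 100 bp of the summit) was found in 88 kept regions (16.8%, Wilson 95% interval 13.8 to 20.2%). The share was 15.1% in the other PFF-gained regions, 10.8% in all merged regions with the same window and 8.68% in all merged regions with 3 Rab5 ASO peaks. The share differed with the number of Rab5 ASO libraries. Of the kept regions with 0 Rab5 ASO peaks 29.3% held a match (44 of 150, 22.6 to 37.1%), against 15.1% with 1, 13.6% with 2 and 7.53% with 3 (11 of 146, 4.26 to 12.99%). The window lies around the highest-fold peak of any library, which can be a Rab5 ASO peak only where one was called. The part of this in the difference was not tested. Other motifs differed in both directions. With 0 and with 3 Rab5 ASO peaks, the NFI site TTGGCA was in 30% and 21.2% of kept regions, the E-box CAGATG in 28% and 23.97% and TGACAG in 21.3% and 17.1%. The other PFF-gained regions had 19.01% and 19.66% (TTGGCA), 26.84% and 19.66% (CAGATG) and 19.35% and 15.52% (TGACAG). In all merged regions these were 17.95% and 20%, 24.37% and 20.73%, and 18.57% and 16.01%. CAGATG and TGACAG were thus lower at 3 in every set, and TTGGCA in kept regions only, which was not tested. In kept regions the GC box GGGCGG was in 2.67% (4 regions) and 8.22% (12) at 0 and 3 Rab5 ASO peaks. The homeobox core TAATTA was in 0.667% (1) and 6.16% (9), with 3.36% and 0.909% at 1 and 2 Rab5 ASO peaks. At 0 and 3, the other PFF-gained regions had 6.22% and 7.24% (GGGCGG) and 3.23% and 7.59% (TAATTA). All merged regions had 5.61% and 15.0%, and 5.42% and 7.90%. A higher share of these 2 motifs at 3 was thus not particular to kept regions.

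Read per library, 39.8%, 28.4% and 23.9% of the 88 kept regions with a match had a peak in Rab5 ASO libraries 1, 2 and 3. Of the 437 kept regions without one, 59.7%, 52.9% and 46.7% did. The difference was -20.0, -24.5 and -22.8 points (mean -22.4 ± 2.28, SD, n = 3), lower in 3 of 3 libraries. The exact sign-flip permutation test gave a two-sided p of 0.25, the smallest possible with 3 libraries. This comparison was chosen after its values were seen. In bins of PFF height, the mean share over the 3 libraries was 22.2% with and 53.1% without a match in the low bin, 43.6% and 48.4% in the middle bin, and 26.8% and 57.5% in the high bin, so the middle bin showed the smallest gap.

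The gap was not particular to kept regions. It was -16.5, -23.1 and -15.2 points in the other PFF-gained regions and -9.56, -11.3 and -8.98 points in all merged regions. Over all merged regions the 9 libraries of the other groups ran from -4.49 to 4.29 points, and the 3 Rab5 ASO libraries all lay below them. The 3 PFF+MLi-2 libraries differed among themselves in kept regions (-4.81, -3.22 and 10.6 points), values that the choice of regions used. The smallest peak width, which tracks the fragment length used in calling, was 53 to 59 bp where the Rab5 ASO was given and 62 to 66 bp elsewhere, and its part in the gap was not tested.

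**Figure D4:**
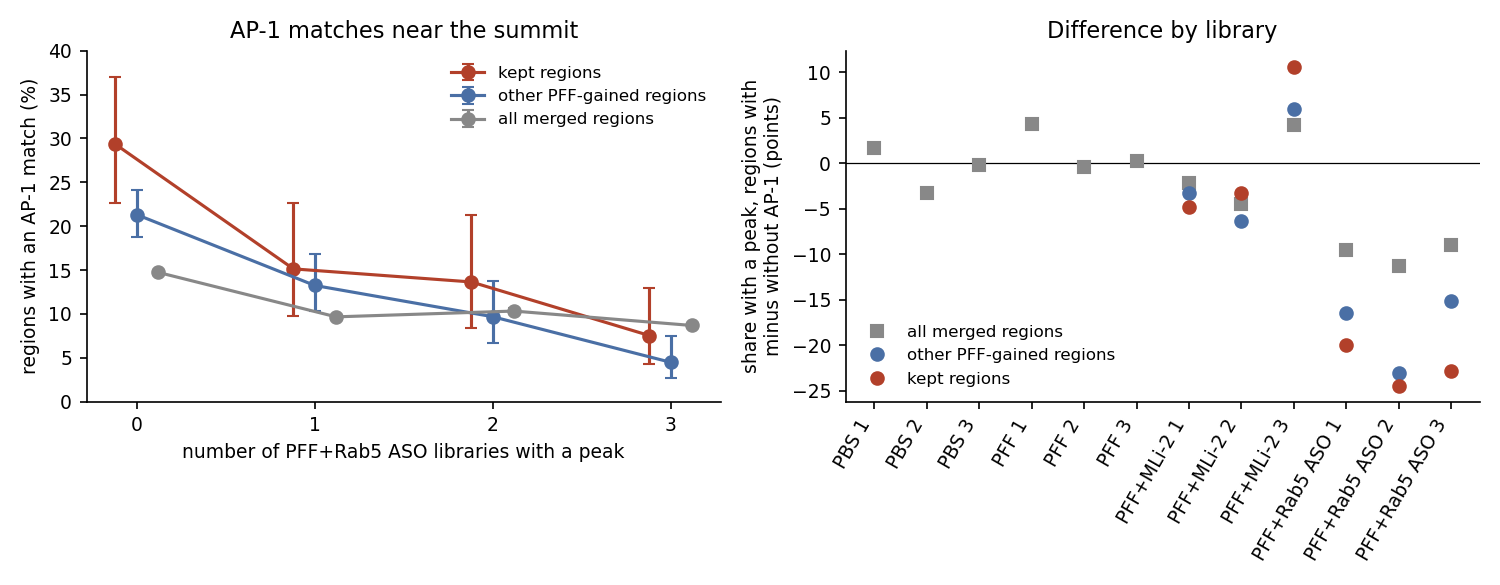
Left, share of regions with an AP-1 match (%) by the number of PFF+Rab5 ASO libraries with a peak, with Wilson 95% intervals (counting error only). Right, share with a peak among regions with a match minus that among regions without one (percentage points), by library; PBS and PFF values of PFF-gained regions are fixed by the choice and not drawn. The kept regions run from 29.3% to 7.53% on the left, and the 3 PFF+Rab5 ASO libraries are the lowest on the right.

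Kept regions with no Rab5 ASO peak and the highest PFF percentile were mostly distal. The first, intergenic on chromosome 5 (chr5:119233007-119233311), carried 2 AP-1 matches and had 22, 22 and 17 fragments in PFF and 13 and 13 with MLi-2. A Sorcs2 intron (chr5:36188329-36188617) carried 3 matches and had 17, 20 and 21 in PFF and 15 and 13 with MLi-2; Sorcs2 is a sorting receptor of the Vps10p family. Cbx7, a chromodomain subunit of Polycomb repressive complex 1, had an intronic region (chr15:79961331-79961603) with no AP-1 match, at 17, 17 and 14 in PFF and 12 and 13 with MLi-2. In each of these, every called MLi-2 peak was lower than every PFF peak. The regions were ranked on PFF height, which favours that order. The Tspyl5 and intergenic Gas7 regions given earlier completed this group of 5.

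Other motifs lay on both sides of the background of all merged regions. CACGTG was found in 19 kept regions (3.62%, 2.33 to 5.58%), 5.75% of the other PFF-gained regions and 3.52% of all merged regions. The neuronal E-box CAGATG was in 25.1% (21.6 to 29.0%) against 22.2% of all, and the NFI site TTGGCA in 24.2% (20.7 to 28.03%) against 19.4%. The GC box GGGCGG of Sp and Klf factors was in 5.52% (3.87 to 7.82%) against 9.51%, the homeobox core TAATTA in 2.86% (1.74 to 4.66%) against 7.67% and the CTCF core in 0.762% (4 regions, 0.297 to 1.94%) against 2.70%. These 3 were less frequent than in all merged regions, and in the other PFF-gained regions they stood at 6.88%, 4.79% and 0.860%. In all, 20 motifs were searched on both strands. None of those spelled out here contains another, and a match is a description of letters, not of binding.

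Kept regions were narrower than constant regions and somewhat wider than the other sets. Their median width was 173 bp (92 to 489 bp), against 155 bp for other PFF-gained regions, 149 bp for all and 346 bp for constant regions. Introns held 219 (41.7%), intergenic sequence 197 (37.5%) and exons 35 (6.67%). The nearest constant region was a median of 5143 bp away, against 6458 bp for the other PFF-gained regions. It lay within 1 kb of 107 kept regions (20.4%), 19.2% of the other PFF-gained regions and 19.5% of the 191320 merged regions that are not constant. Median GC content around the summit was 50.2%, and 20 kept regions (3.81%) were repeats over more than 50% of their bases, against 3.72% of all. They lay on chromosomes 1 to 19, X and Y, with 38 on chromosome 9, 37 each on chromosomes 6 and 11, 6 on X and 1 on Y.

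A gene could be assigned to 408 kept regions: 274 lay in the body of a protein-coding gene and 134 within 50 kb of a start site, for 392 genes in all. Among 20 lists of genes, 28 of 588 annotated members (4.76%) had a kept region, against 1.79% of 21911 protein-coding genes. A PFF-gained region of any kind belonged to 111 listed genes (18.9%) and to 7.38% of protein-coding genes. Among genes with a PFF-gained region, 25.2% of the listed ones and 24.2% of all had a kept region, so the larger share on the lists was not particular to kept regions. The count was not adjusted for gene length or for the number of regions per gene. The lists with most genes were voltage-gated ion channels (5 of 39) and, with 4 each, synaptic and neuronal adhesion (of 43) and cortical projection neuron identity (of 29). No kept region belonged to 7 lists: the 54 lysosomal enzymes and membrane proteins, the 17 proton pump genes, the 39 genes of Rab5, early endosomes and LRRK2 substrates, and the lists of axon guidance (35 genes), senescence (32), the unfolded protein response (26) and interferon sensing (23). At the share of all protein-coding genes these lists would hold 0.304 to 0.966 genes each, so a count of 0 is near that share. Of these lists, axon guidance had 12 genes with a PFF-gained region and 0 with a kept one. Among all genes with a PFF-gained region 24.2% had a kept one, and this difference was not tested. The lists of the unfolded protein response and interferon sensing had 0 genes with a PFF-gained region.

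Of the channel genes, Kcnip4, a modulator of Kv4 potassium channels, had an intronic region (chr5:48588146-48588263) with 14, 11 and 12 fragments in PFF, 17, 10 and 13 with MLi-2 and none in Rab5 ASO. Kcnd3, the Kv4.3 channel itself, had 15, 17 and 14 in PFF, 13 and 11 with MLi-2 and none in Rab5 ASO (chr3:105621246-105621432). Both regions thus lacked Rab5 ASO peaks, while MLi-2 and PFF peaks overlapped in Kcnip4 only. Cacnb2, a beta subunit of voltage-gated calcium channels, had 11, 17 and 16 in PFF, 13 and 12 with MLi-2 and 13 in each Rab5 ASO library (chr2:14652894-14653031). Kcnq3, a subunit of the M-current channel, had 18, 24 and 16, then 12 and 13, then 15, 16 and 13 (chr15:66272832-66273053). The region near Scn8a, the sodium channel Nav1.6, had 12, 12 and 11, then 11 and 10, then 12 and 14 in the Rab5 ASO group.

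Adhesion and presynaptic genes followed no single pattern. An intron of Cntn4, a contactin, had 11, 13 and 12 fragments in PFF, 12, 10 and 14 with MLi-2 and no Rab5 ASO peak (chr6:106177675-106177809). An intron of Tenm3, a teneurin, had 16, 12 and 12, then 17 and 12, then 13, 11 and 11 (chr8:48596470-48596661). Lrrtm3 had 15, 12 and 11, then 14 and 17, then 11 in 1 Rab5 ASO library. Nrxn3, a presynaptic adhesion molecule, had 15, 12 and 15 in PFF, 11, 12 and 10 with MLi-2, and 10 and 13 in Rab5 ASO (chr12:89382924-89383072). Erc2, an active zone scaffold, had a Rab5 ASO peak in 3 of 3 libraries (17, 10 and 17), beside 12, 10 and 12 in PFF. Dscaml1 had 19 in each PFF library and 19 in 1 Rab5 ASO library.

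Among identity genes, a region at a Foxp1 start site (chr6:99096208-99096373) had 15, 9 and 13 fragments in PFF, 16 and 10 with MLi-2 and none in Rab5 ASO. Mef2c, a transcription factor of excitatory neurons, had an intronic region with 12, 10 and 10, then 11 and 14, then 12 in 1 Rab5 ASO library, and its window held a MEF2 motif. Sox5 had 10, 10 and 11 in PFF and peaks of 14 and 12 in 2 Rab5 ASO libraries. At Tcf4 the pileups were 19, 19 and 21 in PFF and 23, 21 and 23 in Rab5 ASO. Its PFF percentile was only 2.76, since fold is taken over the local background. Foxp1 therefore lacked Rab5 ASO peaks and Tcf4 had all 3.

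The TGF-beta list of 26 genes held 3 with a kept region, and Smurf1, a ubiquitin ligase of this pathway with 2 kept regions, is not on it. Acvr1, a type I receptor of bone morphogenetic proteins and activins, had 15, 15 and 13 in PFF, 11, 13 and 13 with MLi-2 and none in Rab5 ASO (chr2:58487273-58487482). Ltbp1, which binds latent TGF-beta, had 15, 14 and 11, then 11 and 18, then 13 and 13 (chr17:75094775-75094891). Tgif1, a repressor of this pathway, had 21, 23 and 24, then 18 and 19, then 21, 16 and 17 at a start site. The lists of autophagy genes and of MiT/TFE factors and their control held 1 each: an Atg7 intron, with 2 CACGTG matches (13, 19 and 15 in PFF, 12 and 11 with MLi-2, 17, 12 and 15 in Rab5 ASO, chr6:114778694-114778875) and a Rptor intron (15, 11 and 10, then 15 and 14, then 14). Atg7 is an autophagy enzyme and Rptor the raptor subunit of mTORC1.

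Other listed genes were Jun, Hes1, Notch1, Nkx2-1, Dlg1, Shank2 and Camk2b. The region nearest to Jun, an AP-1 subunit, lay 30673 bp from the Jun start site and had 12, 11 and 11 fragments in PFF, 11 and 12 with MLi-2 and 10 in 1 Rab5 ASO library. The one assigned to Hes1, a Notch target, lay 25324 bp from its start, at the promoter of the noncoding 9030404E10Rik, and had 14, 14 and 16 in PFF and 22, 18 and 17 in Rab5 ASO. As fold these overlapped, at 3.797, 4.389 and 4.939 in PFF and 5.397, 5.028 and 4.39 in Rab5 ASO. Notch1 had 13, 14 and 15 in PFF, 13 and 14 with MLi-2 and 14 and 11 in Rab5 ASO. The Dlg1 flank, with an AP-1 match, had 13, 9 and 12 in PFF, 12, 13 and 11 with MLi-2 and none in Rab5 ASO. Hes1 thus had all 3 Rab5 ASO peaks and Dlg1 none. Shank2 and Camk2b, with pileups of 17 to 26 in PFF, stood at PFF percentiles of 14.1 and 7.41.

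More than 1 kept region fell to 14 genes. Gm20388 had 4, but its annotated span is 4435 kb and holds 478 merged regions. The pairs of Lman2l, Ptdss2 and Tesk1 lay 96, 1190 and 1776 bp apart, while those of Sorcs2, Ctif and Arhgap26 lay 242, 139 and 309 kb apart. Both regions of Ptdss2, a phosphatidylserine synthase, had no Rab5 ASO peak, with 19, 18 and 17 and 15, 17 and 16 fragments in PFF. Both of Smurf1 had Rab5 ASO peaks, in 1 and 2 libraries. The pair at Tesk1, a testis-enriched kinase, had 21 to 28 fragments in PFF at percentiles of 3.26 and 0.432.

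The conditions of the rule were then applied to 2 replicate numbers at a time and read in the libraries of the third. The same measure thus stood in libraries outside those conditions, although peaks of all 12 libraries had been merged into the regions. With number 1 held out, 1575 regions met 2 of 2 PFF, 0 of 2 PBS and 2 of 2 PFF+MLi-2, and a peak was present at 83.4% of them in the PFF library, 61.1% with MLi-2 and 77.2% in the PBS library. With number 2 held out, 625 regions gave 75.8%, 47.7% and 40.5%. With number 3 held out, 778 regions gave 65.9%, 53.7% and 51.0%. The held-out PFF library was the highest of the 3 each time, and the held-out PBS library had a peak at between 40.5% and 77.2% of regions chosen for having none in the other two PBS libraries.

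The held-out PFF share was 75.05 ± 8.74% and the PBS share 56.2 ± 18.9% (mean ± SD, n = 3), a difference of 18.8 points with values of 6.16, 35.4 and 14.9. The exact permutation test of 3 against 3 gave a two-sided p of 0.3 (smallest possible 0.1). The held-out PFF+MLi-2 share was 54.2 ± 6.71%, which differed from PBS by -16.1, 7.2 and 2.70 points (mean -2.08, exact permutation p = 0.9), and these values spread to both sides of 0. Over all merged regions the same libraries had a peak in 59.1%, 43.4% and 48.0% (PBS), 56.0%, 54.4% and 49.0% (PFF) and 46.5%, 46.8% and 46.1% (PFF+MLi-2), so PBS library 1 also had the most peaks of its group. Without PBS library 1 the rule returned 2305 regions in place of 525. The 3 choices share libraries and hold unlike sets of regions. The values are therefore not independent, and the p-values of these permutation tests are a description.

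**Figure D5:**
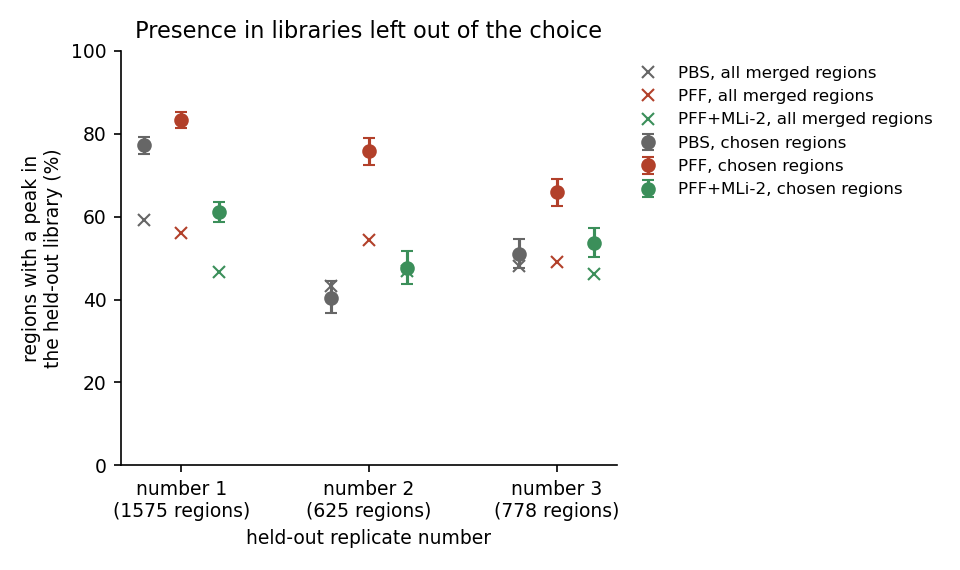
Share of regions with a peak (%) in the held-out PBS, PFF and PFF+MLi-2 library, for regions chosen by the rule on the other 2 replicate numbers (points, with Wilson 95% intervals for counting error) and for all merged regions (crosses). The held-out PFF point is the highest at each number, and the PBS points run from 40.5% to 77.2%.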

How the data were processed

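The data were 12 ATAC-seq peak lists, 3 for each of 4 groups. Groups came from titles and treatment labels. For libraries with MLi-2 or Rab5 ASO, the description field says PBS where the title says PFF. Per the study's methods and the submitters' processing notes, the authors used Trim Galore 0.6.7 for trimming, Bowtie2 2.5.1 for alignment (GRCm38) and MACS2 2.2.7.1 for peaks, called in each library without a control. MACS2 options, duplicate handling and any Tn5 shift are not given in the sources used here, and each would alter which low peaks are called. The deposited lists give for each peak a fold enrichment (a ratio), its p and q on the −log10 scale, a score and a summit offset. The deposited score was not used. No read counts were used here, so the authors' test on reads was replaced by presence of a peak.

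Fold is pileup plus 1 over background plus 1 and p is a Poisson tail, so both together returned a whole-number pileup, with a −log10 p within 0.001 for 100% of peaks; on 4946 simulated peaks this step recovered 100%. Relative depth was the most frequent background over the smallest peak width, scaled to a mean of 1. Peaks of all libraries, other contigs included, were merged at 1 bp. A promoter lay within 1 kb of a GENCODE vM21 start site. A region was assigned to the protein-coding gene it overlapped, or to the nearest start within 50 kb. Motifs and sequences were read from RefSeq GRCm38.p6 (0 regions ended past a chromosome end), within 100 bp of the summit of a region's highest-fold peak, with bins of PFF height as tertiles of PFF-gained regions. Tests were exact: sign flips over 3 libraries, or permutation of 3 against 3, both two-sided; no test was run over regions, and intervals (Wilson, 95%) cover counting error only.

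Named regions were the 8 highest by PFF percentile with 3 PFF+MLi-2 peaks, the 6 highest at protein-coding starts, the 5 highest with all 9 fibril libraries, the 5 highest with 0 Rab5 ASO peaks, those in listed genes and those sharing a gene. One listed gene's region is not reported here. The members, gene lists and tests were chosen with earlier results of these data known. Alternatives were equal numbers of top peaks, −log10 q of at least 3, coverage of 50% of the region, 3 of 3 PFF+MLi-2 libraries, a promoter distance of 2 kb, a replicate block and leaving out each library. Python 3.11.15, numpy 2.4.6, pandas 2.3.3, scipy 1.17.1 and matplotlib 3.10.9 were used.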

Additional observations from a re-analysis of the deposited data

How the results depend on the processing

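The number of kept regions was 525. It was 542 with the 137417 top peaks of each library, 557 with a −log10 q of at least 3 and 624 where a peak had to cover 50% of the region, but 114 with 3 of 3 PFF+MLi-2 libraries. Leaving out 1 library gave 226 to 2305: 2305, 887 and 1093 without PBS library 1, 2 or 3, 827 without PFF library 3, and 266, 261 and 226 without PFF+MLi-2 library 1, 2 or 3. Fewer conditions or libraries change such a count by construction. The promoter share of 14.1% became 19.8% within 2 kb (22.0% of all regions) and 10.7% with equal top peaks (16.8% of all). The kept regions exceeded the other PFF-gained regions in Rab5 ASO by 10.6 to 19.8 points under all 16 alternatives, and by 12.4 to 19.8 without 1 library. The AP-1 gap, with alternatives added after seeing the data, stayed between -24.8 and -16.1 points in 7 settings, and between -23.6 and -21.4 without 1 Rab5 ASO library.

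The held-out difference of PFF from PBS was 12.9 points with equal top peaks (exact permutation p = 0.1) and 19.1 with the stricter q. That of PFF+MLi-2 from PBS was -2.08 points and turned to 2.23 with equal top peaks; the cause was not tested. With a replicate block (sign flips over the 3 numbers) the values were 18.8 points (exact p = 0.25) and -2.08 points (exact p = 1). The smallest p is 0.25 with the block and 0.1 without it, so no call was possible either way. The main tests did not take the numbers as pairs. Over constant regions, same-numbered PBS, PFF and PFF+MLi-2 libraries deviated together with correlations of 0.00513 to 0.0788 (0 of 9 above 0.1). In 8 of 9 the own number correlated best, so the low values do not show that the numbers are unpaired. Pairs with PFF+Rab5 ASO libraries were not read. No leave-one-out was run on held-out values, which already leave 1 number out. Calls rest on pileups of about 8 to 39 fragments, so presence at a single site is subject to counting error.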
